A study of Mus musculus with 10 samples.

Results

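The germinal center transcription factors examined here are 10 genes, Bcl6, Bach2, Irf8, Mef2b, Mef2c, Foxp1, Tcf3, Id3, Spib and Pou2af1, taken by name from the 22380 genes quantified by RNA-seq in antigen-specific germinal center B cells of mice that carry or lack ZBTB38, a zinc finger protein that binds methylated DNA. The ZBTB38 KO group (Zbtb38 fl/fl x Vav-Cre) had 6 libraries, the ZBTB38 HET group (Zbtb38 fl/+ x Vav-Cre) had 2 and the ZBTB38 WT group (Zbtb38 fl/fl, no Cre) had 2. Per the study's methods, the floxed line was made in C57Bl6/J zygotes and then backcrossed to C57Bl6/N. The Vav promoter drives Cre mainly in hematopoietic cells, so the deletion was not limited to B cells, and the floxed allele came from a single founder. Per the study's methods, mice were immunized with NP-OVA in alhydrogel, and NP-binding GL7+ IgD- B cells were isolated 2 weeks later after magnetic enrichment for GL7, whereas the deposited labels give the treatment as untreated. Ages were not given in the sources used here. Nothing in the labels says how many animals went into a library. The study counts 2 WT and 6 KO mice in its comparison, the same numbers as the libraries. P-values measure the spread between these libraries.

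Germinal centers are structures that form in lymphoid follicles after immunization, where B cells divide, mutate their antibody genes and are selected for binding to antigen. BCL6 is the repressor that defines this state. It represses DNA damage response genes and the exit to plasma cells, and BACH2, IRF8, the MEF2 proteins, the E protein encoded by Tcf3 with its inhibitor ID3, and the octamer coactivator encoded by Pou2af1 work beside it. FOXP1 is instead typical of resting naive B cells and falls as cells enter the germinal center.

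Each library held 26612431 to 41059082 estimated counts, and the 10 factors had at least 4339 counts in every library, so counting error was small beside the spread between libraries. Zbtb38 itself was at 162 and 152 CPM (counts scaled to library size with edgeR's TMM factors) in WT, 117 and 106 in HET and 18.6 to 50.3 in KO, where replicate 2 was highest and the other 5 were at 18.6 to 34.8. In TPM, a length-scaled abundance, KO replicate 2 was at 46.1, beside 49.6 and 49.6 in HET, and the other KO libraries at 17.5 to 23.7. Both scales sum all transcripts of the gene, so they can hold reads from outside the floxed exon. Per the study, that exon holds the whole coding sequence and its transcripts were fully lost in KO mice, with a representative trace shown per genotype. Reads within the exon were not counted here, so the state of the deletion in KO replicate 2 was not tested. All 7 germinal center B markers checked (among them S1pr2, Fas, Mki67, Rgs13, Mybl1 and Gcsam) were above 0 in every library, and their summed level was 2467 and 2226 CPM in WT, 3204 and 3182 in HET and 1874 to 3345 in KO. One KO library, replicate 6, stood apart from the other 9, with a median correlation of 0.954 to the others where the rest had 0.971 to 0.983, across genes on the log2 scale. Libraries also differed in Y-linked transcripts (Ddx3y, Eif2s3y, Kdm5d, Uty, summed): both WT libraries (210 and 279 CPM) and 3 KO libraries (208 to 257) had them, while both HET libraries (2.68 and 1.99) and KO replicates 3, 4 and 6 (4.17 to 6.94) had almost none.

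All 10 factors were expressed well above the middle of the transcriptome, between the 91.8th and the 99.3rd percentile of all genes in TPM (which allows levels of different genes to be set side by side). Pou2af1, which encodes the coactivator OCA-B of octamer-binding proteins, was highest at 934 ± 183 TPM (SD, n = 10 libraries). Mef2b, encoding a MADS box protein that activates Bcl6, followed at 563 ± 116 TPM, then Spib, an ETS factor related to PU.1, at 455 ± 84.1 TPM, and Irf8, an interferon regulatory factor that acts with PU.1, at 397 ± 49.4 TPM. Mef2c, the second MADS box factor of the group, was at 357 ± 56.9 TPM.

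The lower part of the order held the inhibitor and its E protein side by side. Id3 was at 253 ± 41.5 TPM and Tcf3 at 248 ± 50.6 TPM, and Id3 was above Tcf3 in 4 of 10 libraries. Foxp1 stood at 160 ± 39.5 TPM, Bach2, a repressor that holds back plasma cell differentiation, at 113 ± 21.9 TPM, and Bcl6, the defining repressor, last at 97.4 ± 19.4 TPM.

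Only the steps from Pou2af1 to Mef2b and from Mef2c to Id3 had ranges of mean and SD that did not overlap. Pou2af1 was above Mef2b in 10 of 10 libraries and Mef2c above Id3 in 9 of 10. The remaining neighbours kept their order in 8 or 9 of 10 libraries, apart from Id3 and Tcf3, which cannot be ranked against each other. Foxp1 and Bach2 changed places in HET, where Foxp1 was at 128 ± 19.96 TPM and Bach2 at 131 ± 6.48 TPM (SD, n = 2). Summed TPM also depends on how reads are divided among annotated transcripts, since a read on a short transcript adds more TPM. On average, a 689-base transcript held 13.0% of Mef2c TPM, a 607-base transcript 21.6% of Foxp1 TPM and an 802-base transcript 25.4% of Spib TPM. Bcl6 and Id3 have 1 transcript each, of 3525 and 1278 bases. The part of this in the order was not tested.

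**Figure D1:**
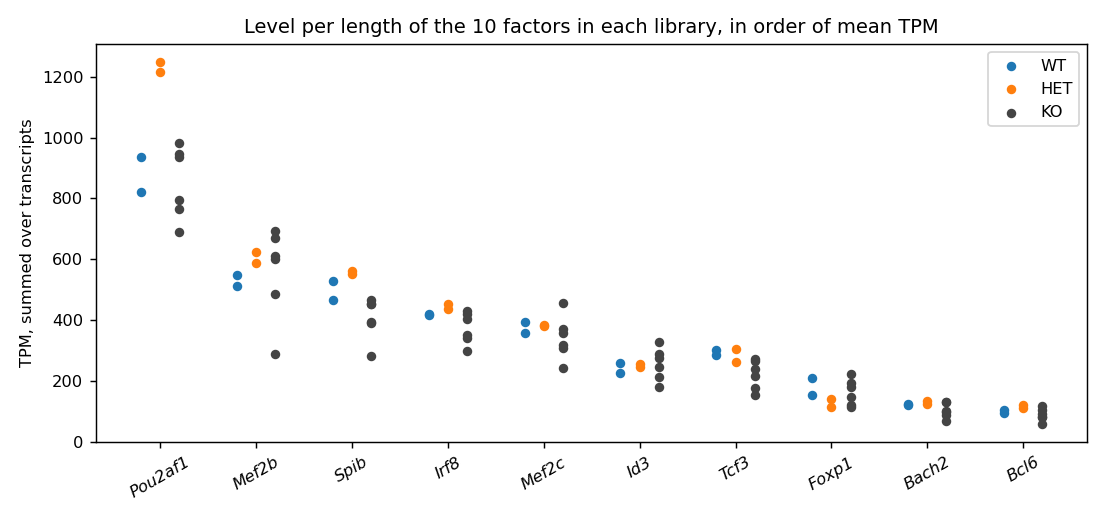
TPM (y axis, linear from 0) of the 10 factors (x axis, by mean level) in each of the 10 libraries, 1 point per library, coloured by genotype. Pou2af1 is the highest factor in each library, the points of Id3 (180 to 330 TPM) and Tcf3 (155 to 305 TPM) overlap, and Bcl6 is lowest by mean.

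The first question of the design was whether loss of ZBTB38 altered expression in germinal center B cells, by comparing WT with KO. None of the 10 factors differed between WT and KO at an adjusted p of 0.1 in the quasi-likelihood test of edgeR, adjusted by Benjamini-Hochberg over 14203 genes (adjusted p = 0.99899 for each of the 10), where 0.00704% of all genes tested, Zbtb38 alone, passed. At an unadjusted p under 0.05 the count was 0 of 10, beside 2.19% of all genes. Of the 10 estimates, 6 were higher and 4 lower in WT, and the median size of the log2 fold change was 0.11, beside 0.23 for all genes tested. The latter include many genes at lower levels than the factors, and genes of like level were not compared.

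Adding HET to the controls (WT plus HET against KO) also called 0 of the 10 factors, with adjusted p from 0.744 to 0.916 in edgeR, where 0.00749% of 13347 genes, again Zbtb38 alone, passed. At an unadjusted p under 0.05, 1 of 10 factors, Tcf3, passed, beside 6.3% of all genes. The median size of the log2 fold change was 0.17 for the factors and 0.21 for all genes, again without a set of like level. These 2 comparisons share the WT and KO libraries and are not independent.

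HET against KO, where both groups carry Vav-Cre, called 0 of 10 factors in edgeR (adjusted p from 0.370 to 0.994) beside 0.00697% of 14354 genes. Pou2af1 and Spib passed an unadjusted p under 0.05, which is 2 of 10 beside 10.2% of all genes. WT against HET likewise called 0 of 10 factors in edgeR (adjusted p from 0.709 to 0.9995) beside 0.00697% of the same 14354 genes, with 1 of 10, Pou2af1, at an unadjusted p under 0.05 beside 6.42%. DESeq2 on the same counts also called 0 of the 10 factors in each comparison, where it called 0.0425% of all genes in WT against KO, 0.135% in WT plus HET against KO, 3.2% in HET against KO and 0.875% in WT against HET. On log2(TPM + 1), limma called 0 of the 10 factors in each as well, beside 0.0% of all genes in the first 2 comparisons and 0.00697% in the last 2. The 1 gene called by edgeR in HET against KO and in WT against HET was Hnrnpll, not a member of the group.

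**Figure D2:**
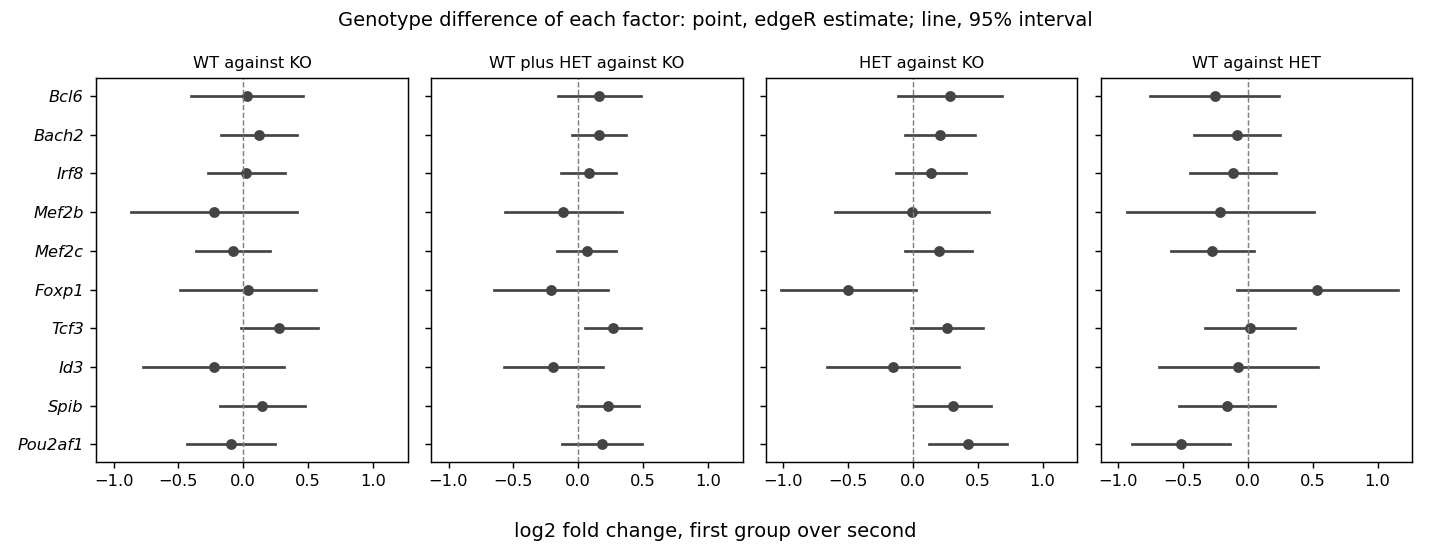
Log2 fold change (x axis) of each factor (y axis) in the 4 comparisons, first group over second, as edgeR estimates (points) with 95% intervals (lines). The intervals that leave out 0 are those of Tcf3 in WT plus HET against KO, Spib and Pou2af1 in HET against KO, and Pou2af1 in WT against HET, all with adjusted p above 0.1.

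Positions of the genes are given on GRCm38. Among the repressors, Bcl6 (chr16:23965052-23988852, minus strand) was at 232 and 247 CPM in WT, 278 and 294 in HET and from 169 through a median of 246 to 279 in KO. The WT values lay inside the KO range and HET replicate 2 was the highest of all 10 libraries. WT over KO had a log2 fold change of 0.03 (SE 0.197), with a 95% interval from -0.41 to 0.47, and HET over KO one of 0.29 (SE 0.183). As a fold change the WT over KO interval runs from 0.755 to 1.38, and changes within it could not be told from none.

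Bach2 (chr4:32238804-32586108, plus strand) was at 378 and 374 CPM in WT, 380 and 417 in HET and from 303 through 341 to 391 in KO. All 4 controls were above the KO median, but KO replicate 2 was above 3 of them. The log2 fold change of WT plus HET over KO was 0.16 (SE 0.0967, 95% interval -0.05 to 0.37, unadjusted p = 0.119, edgeR).

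Of the genes that BCL6 is known to repress, 10 were listed (Prdm1, Cdkn1a, Trp53, Atr, Cd69, S1pr1, Gpr183, Ccl3, Bcl2, Cd44). None of the 10 tested was called in WT against KO or passed an unadjusted p under 0.05, and their median log2 fold change was -0.03. Prdm1, which encodes the plasma cell regulator BLIMP1 and is a target of both BCL6 and BACH2, was at 12.5 and 13.9 CPM in WT, 12.05 and 2.39 in HET and 4.96 to 31.4 in KO. In HET against KO, 8 of 10 had a lower estimate and 2 a higher one, and the middle estimate was -0.60 on the log2 scale. S1pr1 (-1.20) and Gpr183 (-1.23), receptors that guide B cell position, passed an unadjusted p under 0.05 with adjusted p of 0.479 and 0.299 (edgeR). That is 2 of 10, beside 10.2% of all genes. The 5 naive B markers given below were also lower in HET against KO (median log2 fold change -1.26). The part of naive B cells in these values was not tested.

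Irf8 (chr8:120736358-120756694, plus strand) was the steadiest of the factors over the 10 libraries, with a coefficient of variation of 8.80% in CPM. It was at 790 and 769 CPM in WT, 865 and 824 in HET and from 663 through 741 to 870 in KO, so that all WT and HET values lay within the KO range. WT and KO differed by 0.02 on the log2 scale (SE 0.135). Irf4, the family member that rises as cells leave the germinal center, was far lower per length, at 10.9 ± 3.91 TPM against the 397 of Irf8, and it did not pass in WT against KO (log2 fold change 0.37).

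The ETS factor Spib (chr7:44525993-44532071, minus strand) was at 746 and 650 CPM in WT, 780 and 778 in HET and from 534 through 655 to 716 in KO. Both HET libraries were above all 6 KO libraries, while WT replicate 2 lay within the KO range. HET over KO was 0.31 on the log2 scale (SE 0.136, 95% interval 0.01 to 0.61, unadjusted p = 0.0431, adjusted p = 0.478, edgeR), WT plus HET over KO 0.23 (SE 0.110, adjusted p = 0.744) and WT over KO 0.15 (SE 0.148). Spi1, encoding the related PU.1, was at 170 ± 19.0 TPM and had log2 fold changes of -0.05 and -0.10 in HET and WT against KO.

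Mef2b (chr8:70139711-70167488, plus strand) varied more than any other factor within KO, with a coefficient of variation of 31.4%. It was at 437 and 395 CPM in WT, 471 and 493 in HET and from 275 in KO replicate 6 through 514 to 717 in KO replicate 1. Every control lay within the KO range and below the KO median. On the log2 scale WT over KO was -0.22 (SE 0.290), and its 95% interval ran from -0.86 to 0.42, the widest of the 10 in that comparison.

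Mef2c (chr13:83504034-83667080, plus strand) was at 489 and 513 CPM in WT, 625 and 588 in HET and from 478 through 529 to 591 in KO. HET replicate 1 was the highest library and both HET libraries were above both WT libraries, with a log2 fold change of WT over HET of -0.28 (SE 0.146, adjusted p = 0.804, edgeR). Of the other family members, Mef2a was at 57.1 and 63.9 CPM in WT, 76.8 and 87.2 in HET and 46.8 to 64.5 in KO. Its log2 fold change in WT plus HET against KO was 0.34 (SE 0.139, unadjusted p = 0.0292, adjusted p = 0.744, edgeR). Mef2d had an estimate of 0.05 there.

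Foxp1 (chr6:98925338-99522721, minus strand), the factor of resting B cells, was at 197 and 258 CPM in WT, 138 and 175 in HET and from 153 through 208 to 319 in KO. HET replicate 1 was the lowest and KO replicate 6 the highest of the 10 libraries in CPM. In TPM HET replicate 1 was again lowest (114), but KO replicate 4 was highest (222) and KO replicate 6 was at 181. The estimate was -0.50 on the log2 scale for HET over KO (SE 0.239, 95% interval -1.02 to 0.02, adjusted p = 0.511, edgeR) and 0.54 for WT over HET (SE 0.285, adjusted p = 0.804), while WT and KO differed by 0.04 (SE 0.238).

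In CPM, naive B transcripts had their extremes in the same libraries as Foxp1. The summed level of the naive B list (5 genes, among them Ighd, Fcer2a, Ccr7 and Klf2) was 744 and 829 CPM in WT, 368 and 417 in HET and from 462 through 613 to 1116 in KO, lowest in HET replicate 1 and highest in KO replicate 6. All 5 genes of that list had lower estimates in HET than in KO (median -1.26 on the log2 scale). Of these, 4 passed an unadjusted p under 0.05 without being called (edgeR), beside 10.2% of all genes. In bulk samples, fewer cells of a type and less RNA per cell cannot be told apart, and the part of naive B cells in the Foxp1 values was not tested.

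Tcf3 (chr10:80409514-80433647, minus strand) encodes the E proteins E12 and E47, basic helix-loop-helix factors that bind E-box DNA and drive immunoglobulin gene activity. The 2 proteins differ by which of 2 alternative exons, both on the minus strand of chromosome 10 in GRCm38, encodes the DNA-binding and dimerization domain. The exons are shown because they separate the 2 forms among the deposited transcripts; both were read from the Gencode vM21 transcripts, at chr10:80412827-80413062 for E12 (236 bases) and chr10:80410398-80410624 for E47 (227 bases, with 1 of the 6 E47 transcripts starting 3 bases later). Capitals mark the 27 coding bases of the basic region by which the forms were told apart, and 7 of these bases differ between the exons.
Tcf3 E12 exon: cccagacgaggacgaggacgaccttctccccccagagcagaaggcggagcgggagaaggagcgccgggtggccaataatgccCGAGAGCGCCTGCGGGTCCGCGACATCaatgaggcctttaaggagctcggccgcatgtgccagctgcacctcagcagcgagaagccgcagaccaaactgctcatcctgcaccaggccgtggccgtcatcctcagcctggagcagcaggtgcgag
Tcf3 E47 exon: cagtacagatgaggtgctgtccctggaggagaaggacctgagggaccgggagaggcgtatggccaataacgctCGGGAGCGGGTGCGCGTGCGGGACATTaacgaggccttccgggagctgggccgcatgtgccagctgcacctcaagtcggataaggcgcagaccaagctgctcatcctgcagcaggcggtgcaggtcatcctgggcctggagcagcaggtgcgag

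Tcf3 as a whole was at 551 and 566 CPM in WT, 518 and 587 in HET and from 390 through 483 to 500 in KO. It was the 1 factor of the 10 whose 4 controls all lay above all 6 KO libraries in CPM, a separation in either direction that 1.45% of 14354 genes had. The log2 fold change was 0.27 for WT plus HET over KO (SE 0.0993, 95% interval 0.05 to 0.48, 1.21-fold, unadjusted p = 0.0183, adjusted p = 0.744, edgeR), 0.28 for WT over KO (SE 0.135, unadjusted p = 0.0643) and 0.26 for HET over KO (SE 0.128, unadjusted p = 0.0627). WT and HET differed by 0.02 (SE 0.159).

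The separation depended on the scale. In TPM, without TMM scaling, WT replicates 1 and 2 were at 285 and 301, HET replicates at 264 and 305, and KO libraries from 155 through 229 to 272, so that HET replicate 1 fell below the highest KO library. Spib, in turn, was separated in TPM, at 467 to 561 in the 4 controls and 284 to 466 in KO, but not in CPM. The closest values were 467.4 TPM in WT replicate 2 and 465.7 TPM in KO replicate 2. The share of all genes separated in TPM was not counted. Against TMM-scaled counts, TPM moved the median log2 fold change of all genes by 0.13 toward the controls in WT plus HET against KO. In a fit with the presence of Y-linked transcripts as a term, chosen after seeing the data, the log2 fold change of Tcf3 in WT plus HET against KO was 0.27 (unadjusted p = 0.0262, adjusted p = 0.806, edgeR).

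Separation was also counted in the other comparisons, where the 10 factors share their libraries and are not independent. Between WT and KO, 1 of 10 factors, Tcf3, had groups that did not overlap in CPM, beside 6.56% of all genes. Between HET and KO they were 3 of 10, Tcf3, Spib and Pou2af1, beside 13.9%, and between WT and HET 8 of 10, all but Tcf3 and Id3, beside 48.0%. With 2 libraries in a group, separation is common among all genes.

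Both forms of Tcf3 were present in every library. E47 transcripts, 6 of 12, made up 74.3 to 80.8% of Tcf3 TPM, and E12 transcripts, 4 of 12, 19.1 to 25.7%. The E12 share was 22.7 and 23.5% in WT, 19.8 and 19.1% in HET and from 20.8 to 25.7% in KO, so that both HET libraries had a lower share than the other 8. E47 was at 220 and 228 TPM in WT, 211 and 246 in HET and 121 to 216 in KO, and E12 at 64.8 and 70.6 TPM in WT, 52.3 and 58.2 in HET and 33.5 to 68.1 in KO. These shares are Salmon's division of reads among near-identical transcripts and are given as a description.

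**Figure D3:**
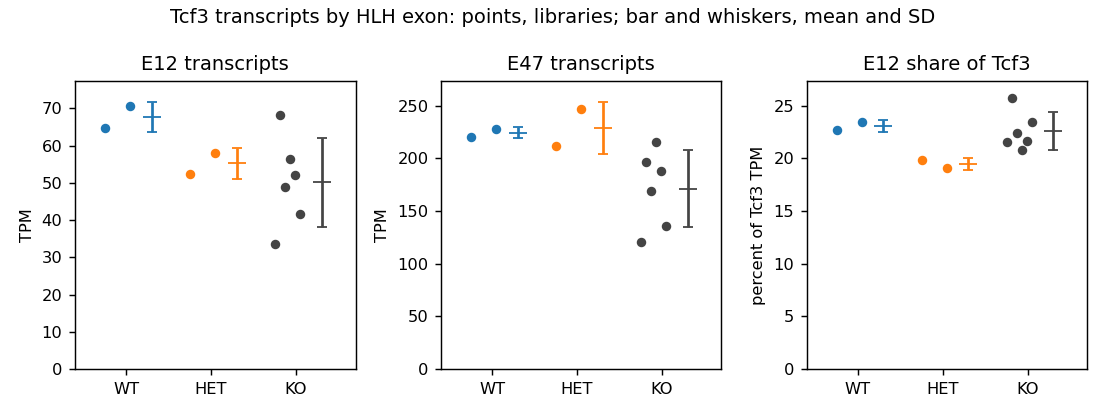
TPM of the E12 and E47 transcripts of Tcf3 and the E12 share of Tcf3 TPM in percent (y axes, linear from 0) by genotype (x axis), with points for libraries and a bar and whiskers for the mean and SD. The E47 panel has 3 of 4 control libraries above all KO libraries, and the share panel has both HET libraries lowest, at 19.1 and 19.8%.

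Tcf4, the E protein gene most abundant after Tcf3 among the 3 (139 ± 16.7 TPM, against 248 for Tcf3 and 23.5 ± 5.30 for Tcf12), had the opposite sign. It was at 185 and 187 CPM in WT, 149 and 184 in HET and from 195 through 220 to 260 in KO, with all 4 controls below all 6 KO libraries. Its log2 fold change of WT plus HET over KO was -0.34 (SE 0.107, unadjusted p = 0.00679, adjusted p = 0.744, edgeR). In TPM the groups overlapped, at 102 to 139 in the controls and 130 to 167 in KO. Tcf12 had an estimate of 0.12.

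Id3 (chr4:136143497-136145755, plus strand), which encodes an HLH protein without a basic region that binds E proteins and keeps them from DNA, was at 174 and 195 CPM in WT, 200 and 189 in HET and from 165 through 196 to 330 in KO. The highest value, in KO replicate 1, lay well above the next highest of 234. The log2 fold change of WT over KO was -0.23 (SE 0.246, 95% interval -0.77 to 0.32). Id2, which encodes another inhibitor of the same family, was at 35.6 ± 7.02 TPM.

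The ratio of Tcf3 to Id3 in TPM, which sets an activator beside its inhibitor, was 1.26 and 1.15 in WT, 1.03 and 1.23 in HET and 0.471, 0.914, 0.792, 1.10, 1.12 and 0.989 in KO replicates 1 to 6. The 2 WT libraries were above all KO libraries, and HET replicate 1 was not. The ratio is a description with no test, and the KO range rests at its lower end on replicate 1, which had the lowest Tcf3 and the highest Id3.

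Pou2af1 (chr9:51213708-51240080, plus strand) was at 1581 and 1355 CPM in WT, 2091 and 2101 in HET and from 1273 through 1638 to 1758 in KO. Both HET libraries were above the other 8, and WT lay within the KO range. The log2 fold change was 0.42 for HET over KO (SE 0.138, 95% interval 0.12 to 0.72, 1.34-fold, unadjusted p = 0.0101, adjusted p = 0.370, edgeR) and -0.51 for WT over HET (SE 0.173, unadjusted p = 0.0120, adjusted p = 0.709), with -0.09 (SE 0.154) for WT over KO. When WT and HET were fitted without the KO libraries, Pou2af1 was called (log2 fold change -0.50, adjusted p = 0.0566, edgeR), as were 3.96% of all genes tested in that fit. Pou2af1 lies on chromosome 9, as Zbtb38 does, 45.5 Mb away. The octamer-binding proteins it works with, encoded by Pou2f1 and Pou2f2, were at 40.8 ± 11.4 and 69.0 ± 6.55 TPM and had log2 fold changes of HET over KO of 0.30 and -0.14.

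**Figure D4:**
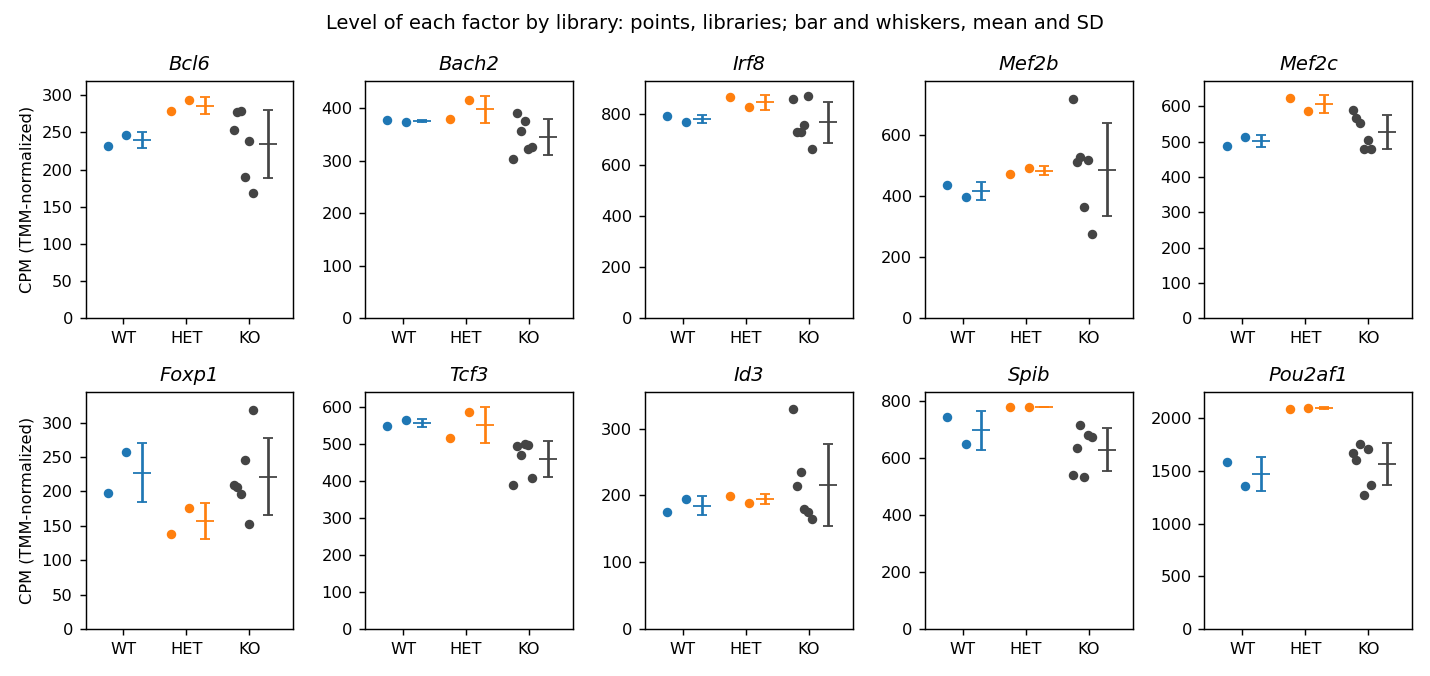
TMM-normalized CPM (y axes, linear from 0, a scale for each gene) of the 10 factors by genotype (x axis), with points for libraries and a bar and whiskers for the mean and SD (WT n = 2, HET n = 2, KO n = 6). Tcf3 is the 1 panel with all WT and HET points above all KO points, and in the Pou2af1 panel the HET points, at 2091 and 2101, lie above the rest.

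The HET libraries were below both WT libraries in transcripts of other cells, and within the KO range for the myeloid, T cell and plasma cell lists. The summed myeloid list (9 genes, among them Lyz2, Itgam and C1qa) was 94.0 and 100 CPM in HET, 617 and 489 in WT and from 82.9 through 289 to 805 in KO. The T cell list (8 genes) was 187 and 188 CPM in HET, 238 and 235 in WT and 175 to 253 in KO, and plasma cell markers (7 genes) 1575 and 1488 in HET, 1832 and 1627 in WT and 1468 to 2023 in KO. Of the T cell genes, Lck was highest, at 113 ± 14.6 TPM, and Cd3g next, at 11.3 ± 8.29 TPM (SD over all libraries). The T cell sum therefore says little of the other 7 genes. Lck had a log2 fold change of 0.03 in HET against KO. The plasma cell list was led by Jchain, at 1230 ± 141 TPM, with Slamf7 at 263 ± 46.2 and Xbp1 at 224 ± 52.0 TPM. Slamf7 had a higher estimate in HET than in KO (0.22), and the other 6 genes of that list had lower ones. None of the 9 myeloid or 8 T cell genes was at 0 in any library. In HET against KO, 10.2% of all genes passed an unadjusted p under 0.05 (edgeR). All 9 myeloid genes had lower estimates there (median log2 fold change -1.57, 6 at an unadjusted p under 0.05). So had 7 of 8 T cell genes (median -1.09, 2 at an unadjusted p under 0.05). The 6 erythroid genes, summed at 38.8 and 35.5 CPM in HET, 44.8 and 57.1 in WT and 56.1 to 96.5 in KO, were all lower in estimate as well (median -3.19, 3 at an unadjusted p under 0.05). Hbb-bt was the highest of them, at 118 ± 27.2 TPM, with an estimate of -0.56. All 7 germinal center B genes had higher estimates (median 0.34, 1 at an unadjusted p under 0.05). Their part in the HET values of Pou2af1, Spib, Bcl6, Mef2c and Foxp1 was not tested, and the near absence of Y-linked transcripts in both HET libraries cannot be told apart from genotype when WT and HET libraries are set side by side.

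Within the libraries without Y-linked transcripts, Pou2af1 was at 2091 and 2101 CPM in HET and at 1758, 1273 and 1370 in KO replicates 3, 4 and 6. With their presence as a term, the log2 fold change of HET over KO was 0.51 for Pou2af1 (adjusted p = 0.256), 0.28 for Spib (adjusted p = 0.533) and -0.69 for Foxp1 (unadjusted p = 0.0134, adjusted p = 0.322) in edgeR.

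**Figure D5:**
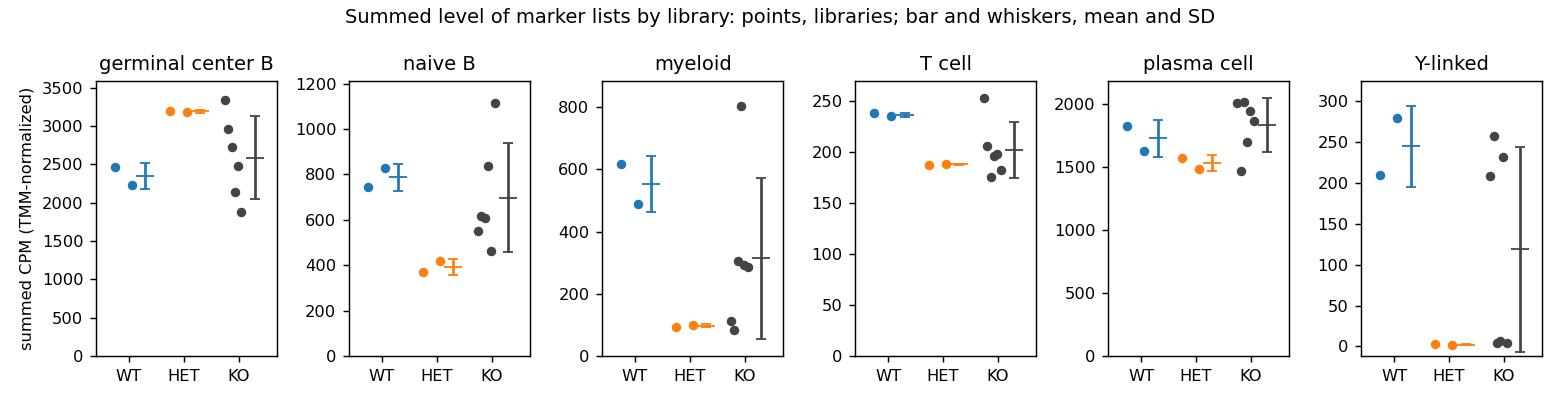
Summed TMM-normalized CPM (y axes, linear, a scale for each list) of marker lists by genotype (x axis), with points for libraries and a bar and whiskers for the mean and SD. The HET points are below both WT points for naive B, myeloid, T cell, plasma cell and Y-linked lists and above them for germinal center B markers, and the KO libraries fall into 3 with and 3 without Y-linked transcripts.

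WT and KO also had unequal levels of markers of other cells, none of them called in edgeR. Of the 8 T cell genes, 7 had higher estimates in WT (median log2 fold change 0.67). Cd3e (1.32, unadjusted p = 0.00227) and Cd3g (1.35, unadjusted p = 0.0124), subunits of the T cell receptor complex, had adjusted p of 0.99899 (edgeR). They are 2 of 8 at an unadjusted p under 0.05, beside 2.19% of all genes. With DESeq2 at an adjusted p of 0.1, the study instead gave CD3e as an example of its few dysregulated genes, which it describes as very lowly expressed. Of the erythroid list, all 6 genes had lower estimates in WT than in KO (median log2 fold change -0.97), with 0 at an unadjusted p under 0.05. In WT plus HET against KO, 4 of them were tested and all 4 had lower estimates in the controls. There Hba-a1 (-1.69), Hba-a2 (-1.76) and Hbb-bt (-0.55) passed an unadjusted p under 0.05, beside 6.3% of all genes, with adjusted p of 0.744 (edgeR). In HET against KO alone the median of the 6 was -3.19. The part of these cells in the Tcf3 values was not tested.

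The partners and relatives of the factors were listed as 20 genes (Bcl6b, Bach1, Mafk, Mafg, Maff, Irf4, Spi1, Irf2, Mef2a, Mef2d, Foxp4, Foxp2, Foxo1, Tcf4, Tcf12, Id1, Id2, Id4, Pou2f1, Pou2f2). In WT against KO 18 were tested, 8 with higher and 10 with lower estimates, and none was called or passed an unadjusted p under 0.05. In WT plus HET against KO 17 were tested and 0 called, with Mef2a and Tcf4 at an unadjusted p under 0.05. Other targets (5 genes, among them Hmox1, Mdm2, Ccnd3 and Klf2) had 0 of 5 called and 0 of 5 at an unadjusted p under 0.05 in both. Dark zone markers (5 genes, summed 892 and 712 CPM in WT, 1011 and 1012 in HET, 809 to 1062 in KO) and light zone markers (5 genes, 1076 and 1194 CPM in WT, 1137 and 1047 in HET, 939 to 1264 in KO) had 0 of 5 called in WT against KO and in WT plus HET against KO.

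Transcript use of the factors was compared by the share of the leading transcript in its gene's TPM. Bcl6 and Id3 have 1 transcript each, and the leading transcript of Mef2b held 99.0 to 99.7% in every library and was left out of the fit. Of the 7 remaining factors, 0 were called in WT plus HET against KO (limma on the logit of the share, adjusted p of 0.972 or more), where 0.0308% of 6500 genes were, and 0 passed an unadjusted p under 0.05 beside 3.77%. In WT against KO 0 of 7 were called (adjusted p = 0.9994) beside 0.108% of 6471 genes, and 0 passed an unadjusted p under 0.05 beside 2.44%.

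Irf8 and Pou2af1 came almost wholly from 1 transcript, with 97.3 to 99.2% and 97.9 to 99.3% of TPM. Bach2 had 75.3 to 84.5% in a transcript with a coding sequence of 716 codons, and the other 2 transcripts have 839. Spib had 66.6 to 71.3% in its leading transcript. Mef2c and Foxp1 have 28 and 21 annotated transcripts, of which 19 and 12 had a mean of 1 TPM or more and 4 and 1 were at 0 throughout. The transcript with the highest mean over the 10 libraries held 13.2 to 23.4% of Mef2c and 32.5 to 40.5% of Foxp1 TPM. For Mef2c other transcripts held a larger share in both WT libraries (16.9 and 16.0%, against 13.2 and 13.8%) and in KO replicates 2, 3 and 5.

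For 9 of the factors, the gene whose log2(CPM + 1) followed it most closely over the 10 libraries among 11564 genes is given. Pearson's r was highest for Mef2c with Mta3 (0.983), Id3 with Commd4 (0.983) and Tcf3 with Naa15 (0.979), followed by Bcl6 with H2-Eb2 (0.973), Spib with Eml2 (0.971), Foxp1 with Atp1b1 (0.966), Bach2 with Dennd5b (0.962), Irf8 with Sox12 (0.956) and Pou2af1 with Nucks1 (0.947). These are the highest of many over 10 points that share depth and cell makeup, and are given as a description. None of these 9 matches is another of the 10 factors.

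Over the 10 factors in CPM, the HET libraries were highest for 6 (HET replicate 2 for 4, HET replicate 1 for 2), and no WT library was highest or lowest for any. The lowest library was KO replicate 6 for 4 factors (Bcl6, Irf8, Mef2b, Id3), KO replicate 4 for 3, KO replicate 1 for 2 and HET replicate 1 for Foxp1. In TPM the HET libraries were likewise highest for 6 (HET replicate 2 for 5), while the lowest library was KO replicate 6 for 6 factors, KO replicate 1 for 3, HET replicate 1 for Foxp1 and KO replicate 4 for 0. Without KO replicate 6 the log2 fold change of Tcf3 in WT plus HET against KO was 0.24 (unadjusted p = 0.0348, adjusted p = 0.818, edgeR), and 0 of 10 factors were called in any of the 4 comparisons.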

How the data were processed

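RNA was measured in 10 libraries, and the authors deposited, per transcript, Salmon 0.9.1 estimated counts and TPM against Gencode mouse release 17 (per the labels and the study's methods: SmartSeq v4 libraries, paired reads). Transcripts were summed per gene ID. Estimated counts were rounded and tested with edgeR 4.0.16 in R 4.3.3 (filterByExpr, TMM, glmQLFit, glmQLFTest), with Benjamini-Hochberg adjustment over all genes tested and a threshold of 0.1, as in the study. SE was the log2 fold change divided by the square root of F. WT against KO used 8 libraries, and the other comparisons used all 10. Because HET and WT have 2 libraries each, their spread was shared with KO. DESeq2 1.42.0 and limma 3.58.1 on log2(TPM + 1) and log2(TPM + 0.1) were alternatives. Leading transcript shares, limited to 0.01 to 0.99, were tested with limma in genes with a mean TPM of 5 or more. The fits were tested on simulated data. Positions and exons are GRCm38, Gencode release 21. The members and lists were chosen with earlier results of these data known. Named genes were the 10 members, their partners and family, list genes with an unadjusted p under 0.05 in the first 2 comparisons, and for each member the most correlated gene; some of these are not reported here. S1pr1, Gpr183 and Prdm1 were named after their values were seen. Smart-seq reads carry no molecular identifiers.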

Additional observations from a re-analysis of the deposited data

How the results depend on the processing

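No factor was called in 74 of 75 alternatives. The exception was WT against HET fitted on the 2 groups alone, with 1 factor called, Pou2af1 (-0.50, adjusted p = 0.0566, edgeR; 0.0566 to 1.00 over its alternatives), beside 523 of 13220 genes (3.96%). Of 750 alternative fold changes of the factors, 715 kept direction and side of the threshold and 34 reversed; 28 of 40 results never reversed. Tcf3 in WT plus HET against KO stayed between 0.23 and 0.41 (adjusted p 0.408 to 0.992).

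Counts of genes called, WT against KO, were 6 with DESeq2, 0 and 3 with limma (TPM + 1, TPM + 0.1), 6 with the replicate block, 0 with the Y-linked term, 0 at a threshold of 0.05, 2 fitted on all 10 libraries, and 0 to 2 leaving out a library (0 without WT replicate 1 or 2 or KO replicate 1, 3, 4 or 5, 2 without KO replicate 6). WT plus HET against KO had 18 with DESeq2, 0 and 0 with limma, 0 with the block and 1 to 2 leaving out a library (2 without WT replicate 1). For HET against KO they were 2 unfiltered, 458 with DESeq2, 6 with TPM + 0.1, 4 with the block, 3 with the Y-linked term, 0 with the 2 groups alone and 0 to 5 leaving out a library (5 without KO replicate 2, 3 without KO replicate 6). For WT against HET they were 125 with DESeq2, 5 with TPM + 0.1, 66 with the block, 2 with the Y-linked term, 523 with the 2 groups alone and 0 to 16 leaving out a library (16 without KO replicate 6). Leading shares gave 4 genes at TPM of 1 or more, 0 with the block and 0 to 3 leaving out a library for WT plus HET against KO, and 11, 0 and 2 to 17 (17 without WT replicate 1) for WT against KO. The causes were not tested. With 2 WT or HET libraries, leaving out 1 assumes that the other varies like the rest.

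TPM carries no TMM scaling and moved the median of all genes by 0.15 in WT against KO, 0.13 in the other 2 comparisons with KO and 0.02 in WT against HET. The TPM fits gave, at both pseudocounts, Mef2c 0.16 and Pou2af1 0.054 in WT against KO, Mef2b 0.076 in WT plus HET against KO, and Mef2b 0.17 and Id3 0.0073 and 0.0074 in HET against KO. The replicate block gave Bcl6 -0.15 and Irf8 -0.0189 in WT against KO, and Bcl6 -0.014 and Mef2c -0.066 in WT plus HET against KO. The Y-linked term, added after seeing the data, gave Bcl6 -0.098 and Irf8 -0.070 in WT against KO, and Mef2b 0.31 and Id3 0.012 in HET against KO. Leaving out a library gave, in WT against KO, Bcl6 -0.049 to 0.086, Foxp1 -0.17 to 0.22, Pou2af1 -0.21 to 0.016 and Irf8 -0.0145 to 0.061; Mef2b -0.23 to 0.032 in WT plus HET against KO and -0.13 to 0.12 in HET against KO; and, in WT against HET, Id3 -0.16 to 0.00083 and Tcf3 -0.074 to 0.11.

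Replicate numbers are shared between groups. Deviations of same-numbered libraries from their group means correlated at -0.00798 to 0.127 across genes, and the block changed no call on a factor. Whether the numbers mark pairs cannot be told from these correlations. With 2 libraries in WT and in HET, the deviations within each group are exact opposites, and differently numbered libraries were not compared. Estimated counts of at least 4339 per factor leave the number of libraries, not depth, as the limit.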

Other observations

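Variation of the factors over the 6 KO libraries depended on the scale. Irf8, Bach2, Mef2c and Tcf3 had coefficients of variation of 9.12 to 10.6% in CPM, Spib and Pou2af1 of 12.1 and 12.6%, Bcl6 of 19.5%, and Foxp1, Id3 and Mef2b of 25.4 to 31.4%. In TPM they ran from 13.7% (Irf8) to 26.9% (Mef2b), with Bach2, Mef2c and Tcf3 at 23.2, 20.8 and 21.3%. In CPM, KO replicate 1 held the highest Mef2b (717 CPM) and Id3 (330 CPM) and the lowest Bach2 (303 CPM) and Tcf3 (390 CPM). On the same scale, KO replicate 6 held the highest Foxp1 (319 CPM) and the lowest Bcl6 (169 CPM), Irf8 (663 CPM), Mef2b (275 CPM) and Id3 (165 CPM).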
